A study of Mus musculus with 67 samples.

Results

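The genes described here are 52 genes of mitosis, chosen by symbol for their established part in condensing chromosomes, building the spindle, separating chromatids and dividing the cell. The rule names the genes and uses no measured value. All 52 were present among the 24421 gene symbols of the deposited tables. By role they were 7 genes of chromosome structure, 6 genes of Cdk1 with its cyclins and small subunits, 6 mitotic kinases, 9 kinetochore and checkpoint genes, 3 genes tied to the anaphase-promoting complex, 9 spindle motor and assembly genes, 6 genes of the midzone and cytokinesis, 2 subunits of the chromosomal passenger complex and 4 tubulins.

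RNA-seq was run on mouse monocytes and their marrow progenitors, sorted by flow cytometry, in a study of how Ly6C- monocytes form and what they need from the transcription factor C/EBPb. The 67 libraries fall into 28 groups in 3 tables that were normalised separately. In the first table, marrow of 7-week-old C57BL/6 mice gave monocyte-dendritic cell progenitors (MDP, 4 libraries), common monocyte progenitors (cMoP, 4), Ly6C+ monocytes (3) and Ly6C- monocytes (4). Blood of such mice gave 4 libraries of Ly6C+ cells, 3 of Ly6Cint cells and 3 of Ly6C- cells. The second table holds blood Ly6C+ and Ly6Cint monocytes labelled ko and Ly6C+, Ly6Cint and Ly6C- monocytes labelled wt, all from 16-week-old mice of a mixed background (n = 2 each), and MDP, cMoP and Ly6C+ monocytes from the marrow of 8-week-old C57BL/6 mice (n = 2 each). The labels give neither the deleted allele nor how the deletion was made, and the gene is taken here from the series title. The third table follows marrow Ly6C+ monocytes of 8-week-old C57BL/6 mice that were transferred into hosts: grafted cells recovered from blood and from spleen 24, 36 and 48 h later, host Ly6C+, Ly6Cint and Ly6C- monocytes from blood and spleen at 24 h, and the marrow cells before transfer (n = 2 each). In each pair of blood grafts 1 library is labelled AC, and whether it pools animals is not stated.

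Entry into mitosis is driven by Cdk1 bound to cyclin A or cyclin B. Condensin and topoisomerase II then compact and disentangle the chromosomes, kinetochores attach them to a tubulin spindle, and the spindle checkpoint holds back the anaphase-promoting complex until every attachment is made. Once released, that complex marks cyclin B for destruction, and the spindle midzone directs the cleavage furrow. Most of these genes are transcribed late in the cell cycle, in G2 and M, through a promoter element called the cell cycle genes homology region (CHR), often near CCAAT boxes, whereas most DNA replication genes are transcribed earlier, at the border of G1 and S, through E2F sites. In the monocyte lineage division is known mainly from marrow progenitors and marrow monocytes, and circulating monocytes are regarded as largely non-dividing.

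Promoter sequences are shown because the members moved together. RefSeq promoters of mouse build GRCm38.p6, running from 250 bases before to 50 bases after the start of each gene, were matched by symbol for 46 of the 52 members. The letters TTTGAA, the common form of the CHR, were searched on both strands and stood in 32 of the 46 (69.6%), against 4 of 32 matched DNA replication promoters (12.5%) and 4893 of all 27025 promoters of that length (18.1%). The letters CCAAT, on either strand, stood in 34 of the 46 (73.9%), against 19 of 32 (59.4%) and 10248 of 27025 (37.9%). A promoter with a CCAAT box and either TTTGAA or the rarer form TTCGAA was found for 29 of 46 members (63.0%), 5 of 32 replication genes (15.6%) and 2082 of 27025 promoters (7.70%). A match to these letters is a description of the sequence, not evidence that it is bound. The 4 promoters printed here include those of Racgap1 and Kif23, 2 of the 4 genes called higher in marrow Ly6C+ monocytes in both tables. The other 2 of those genes are not printed: Cenpa has TTTGAA, and Tuba1c has neither form of the CHR. Also printed are a cyclin gene with several such elements (Ccnb2) and the member with the smallest difference between blood and marrow monocytes. That member, Cks2, has neither form of the CHR. Either form stood in 33 of the 46. Birc5 and Ccnb1, with far larger differences between blood and marrow, also have neither, and Racgap1, with the next smallest, has TTTGAA. A link between the CHR and the size of a difference was not tested. Capitals mark TTTGAA and CCAAT, the second also where it reads ATTGG on the printed strand. Racgap1 has its TTTGAA 6 bases from the start and a reverse CCAAT box at position -12. Kif23 has the same pair at 3 and -7, so both hold the elements within a short stretch over the start. Ccnb2 has TTTGAA at -167 and 5 and CCAAT boxes at -87, -54 and -21. Cks2 has CCAAT boxes at -65, -22, 15 and 33. Positions give the first base of each match, with the start of the gene as 1 and the base before it as -1. They lie at chr15:99651607-99651906 (Racgap1), chr9:61946750-61947049 (Kif23) and chr9:70421505-70421804 (Ccnb2), all on the minus strand, and at chr13:51644982-51645281 on the plus strand (Cks2).
Racgap1: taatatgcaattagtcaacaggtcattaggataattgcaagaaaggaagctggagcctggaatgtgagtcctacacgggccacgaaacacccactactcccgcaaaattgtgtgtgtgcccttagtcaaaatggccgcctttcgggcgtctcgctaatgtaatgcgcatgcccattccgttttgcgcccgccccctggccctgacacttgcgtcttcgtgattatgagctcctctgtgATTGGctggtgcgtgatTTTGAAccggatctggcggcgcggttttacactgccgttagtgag
Kif23: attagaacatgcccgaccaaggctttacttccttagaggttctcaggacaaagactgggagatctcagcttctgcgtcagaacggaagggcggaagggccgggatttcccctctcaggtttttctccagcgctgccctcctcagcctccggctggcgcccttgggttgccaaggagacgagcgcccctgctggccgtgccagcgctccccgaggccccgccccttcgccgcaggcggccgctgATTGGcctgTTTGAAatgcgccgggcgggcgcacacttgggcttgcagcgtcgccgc
Ccnb2: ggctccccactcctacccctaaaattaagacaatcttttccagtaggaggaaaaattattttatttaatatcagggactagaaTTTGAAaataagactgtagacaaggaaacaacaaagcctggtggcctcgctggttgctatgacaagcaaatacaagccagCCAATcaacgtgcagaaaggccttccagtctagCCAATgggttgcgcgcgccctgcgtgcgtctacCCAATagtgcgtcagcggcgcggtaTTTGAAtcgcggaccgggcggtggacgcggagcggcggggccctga
Cks2: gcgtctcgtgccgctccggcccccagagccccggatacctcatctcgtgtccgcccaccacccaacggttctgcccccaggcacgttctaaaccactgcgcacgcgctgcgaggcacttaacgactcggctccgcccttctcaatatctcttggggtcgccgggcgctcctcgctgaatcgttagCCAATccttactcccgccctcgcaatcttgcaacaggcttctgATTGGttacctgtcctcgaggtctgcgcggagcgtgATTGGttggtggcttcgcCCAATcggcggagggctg

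Levels are given in RPM, the reads of a gene per 1000000 reads of its library, one value per library in the order of the replicate labels. Differences are log2 ratios of RPM + 1 from a limma fit of the whole table, with their standard errors and p-values adjusted over all genes tested (11373, 11388 and 12096 genes in the 3 tables), and a gene is called at an adjusted p under 0.05. All 52 members passed the filter on low values in each table, which the marrow libraries, where they are high, help them to do. The libraries of the first 2 tables held between 577690 and 5478761 reads counted on genes, so that 1 read was worth 0.146 to 1.11 RPM. Of the 26 transfer libraries, 25 held 502733 to 1783487 reads, and 1 read was worth 0.561 to 1.99 RPM, so low values there are coarse. Markers of the sorted cells are given here for some 7-week groups only. Flt3 averaged 258 ± 14.9 RPM in 7-week MDP and 9.01 ± 3.80 in cMoP (SD, n = 4 each). Ly6c2 averaged 2709 ± 277 RPM in 7-week blood Ly6C+ monocytes (n = 4) and 30.05 ± 21.8 in blood Ly6C- monocytes (n = 3). Nothing in the labels states that each replicate came from its own animal. The p-values therefore measure the spread between libraries within groups, which may be technical. For each gene that spread is pooled over all groups of a table, also those not compared, in which the gene may be near 0. In bulk RNA, fewer dividing cells and less RNA per dividing cell cannot be told apart.

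Over the 7-week table the members fell into 2 levels. The mean of log2(RPM + 1) over the 52 genes was 6.57 to 6.68 in MDP, 6.42 to 6.44 in cMoP and 6.68 to 6.88 in marrow Ly6C+ monocytes. It was 2.43 to 2.85 in marrow Ly6C- monocytes, and in blood it was 1.84 to 3.59 in Ly6C+, 2.01 to 2.53 in Ly6Cint and 2.01 to 2.48 in Ly6C- monocytes. No library of the 3 progenitor and marrow Ly6C+ groups overlapped a library of the other 4 groups. In the 8-week marrow of the second table the mean was 6.41 and 6.08 in MDP, 5.41 and 5.57 in cMoP and 6.64 in both Ly6C+ libraries. The marrow Ly6C+ cells used for transfer stood at 5.90 and 5.72 in their own table.

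**Figure D1:**
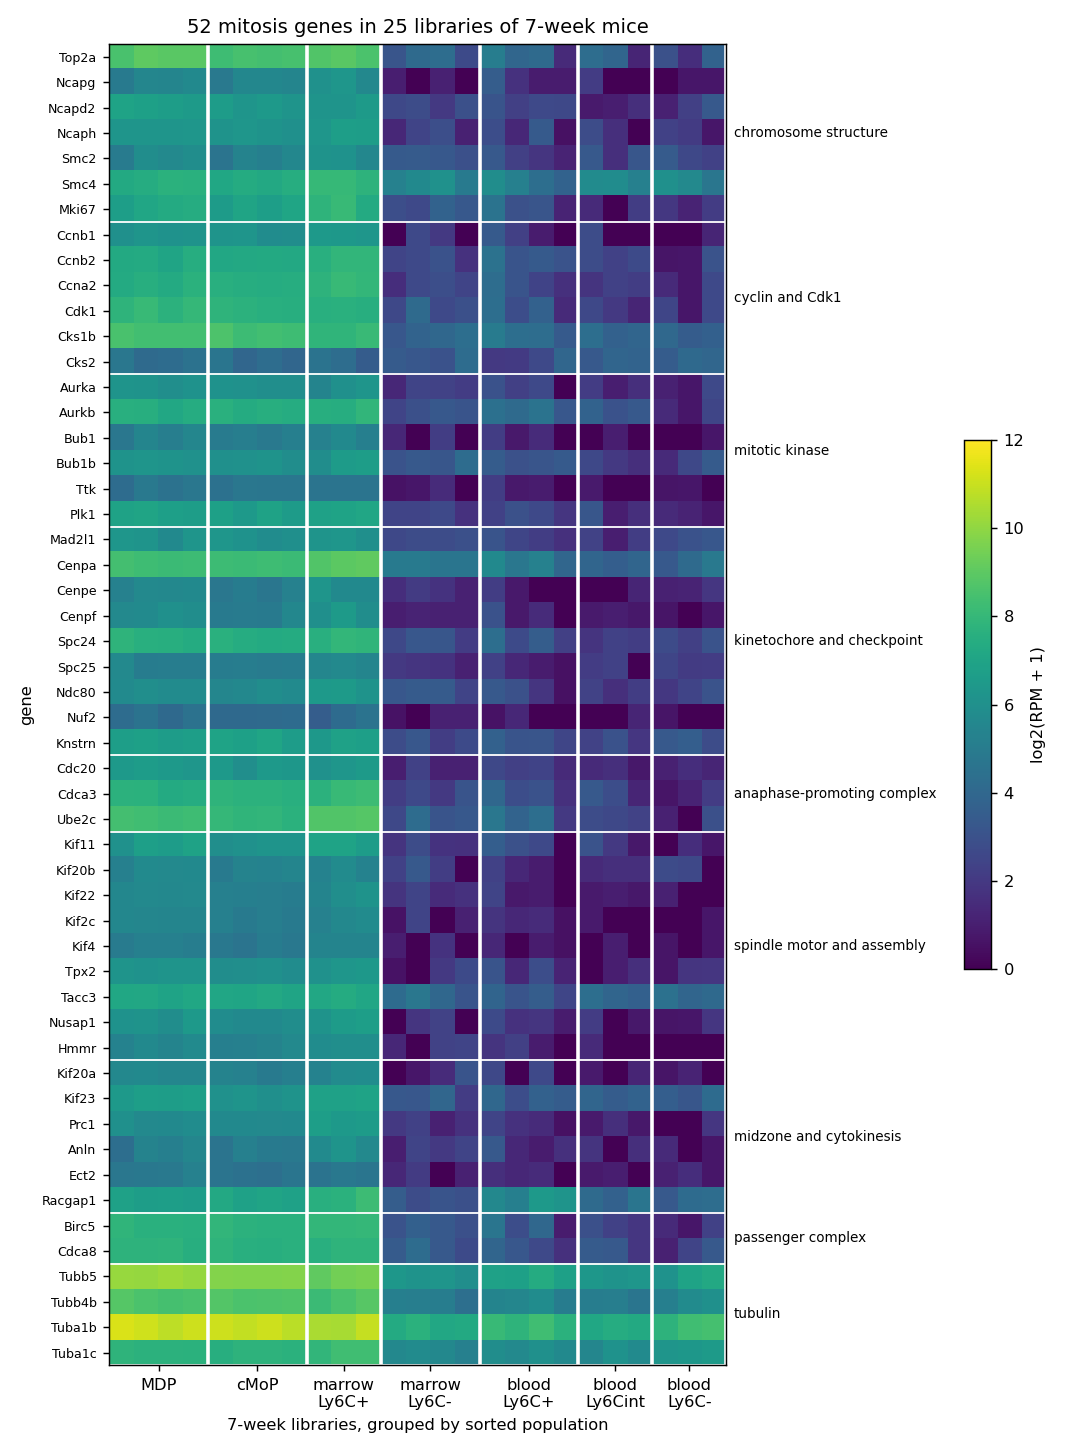
Levels of the 52 mitosis genes (rows, grouped by role) in the 25 libraries of the 7-week table (columns, grouped by sorted population), as log2(RPM + 1) on the colour scale. MDP, cMoP and marrow Ly6C+ libraries are high along nearly every row, and marrow Ly6C- and all blood libraries are low, with members at 0 (darkest cells) scattered among them.

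**Figure D2:**
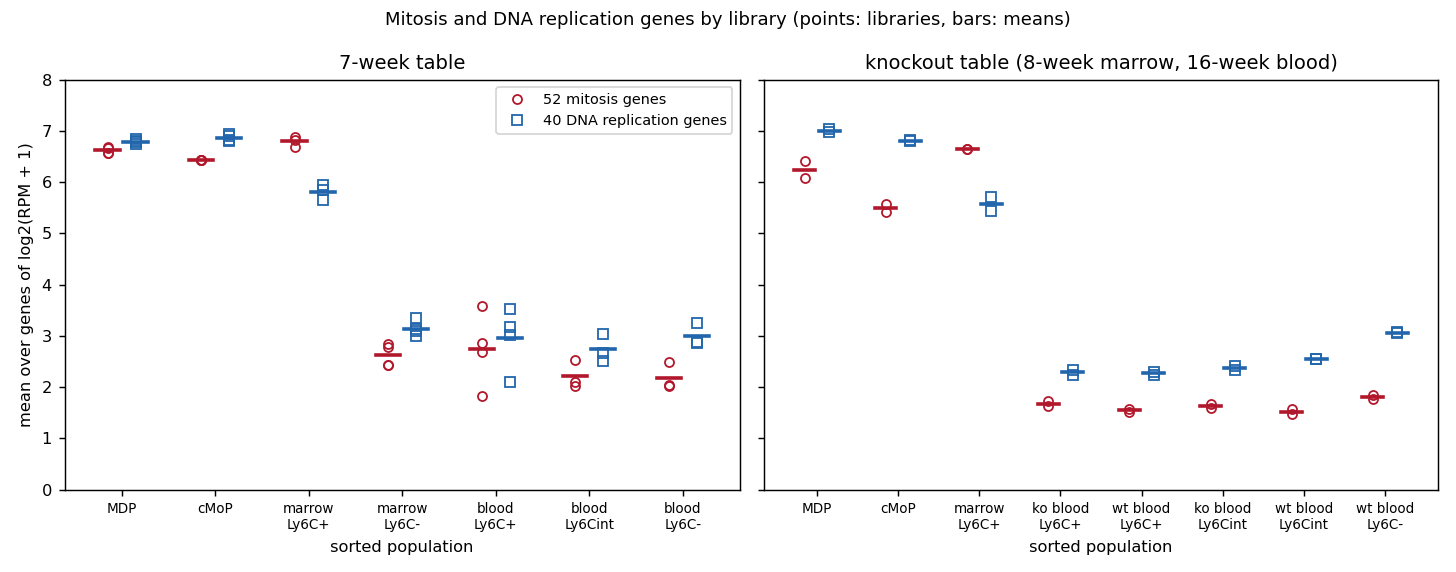
Mean of log2(RPM + 1) over the 52 mitosis genes (circles) and over 40 DNA replication genes (squares) in each library of the first 2 tables, by sorted population, with bars at the group means. For the mitosis genes, marrow progenitors and marrow Ly6C+ monocytes lie between 5.41 and 6.88 and every other library at or below 3.59, and the mitosis mean exceeds the replication mean in marrow Ly6C+ monocytes of both tables.

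From MDP to cMoP few mitosis genes were called, and those that were, all at 8 weeks, were lower in cMoP. In 7-week marrow 0 of 52 members were called in cMoP against MDP with limma, where 9.25% of all genes were called, and 1 member had an unadjusted p under 0.05. The median log2 ratio was -0.18 over the members and -0.01 over all genes. edgeR's quasi-likelihood test on the recovered reads called 2 members, both lower, and a limma fit of the compared groups alone called 12. In 8-week marrow 3 of 52 were lower in cMoP and 0 higher, beside 3.02% of all genes lower and 1.83% higher. There the median log2 ratio was -0.68 over the members and -0.18 over all genes, and 23 members had an unadjusted p under 0.05, as did 2051 of the 11388 genes tested. The 3 called were Nusap1, a microtubule bundler of the spindle, Prc1, which cross-links antiparallel microtubules in the midzone, and Ect2, the exchange factor that switches on RhoA at the furrow. Prc1 had 12.3 and 10.6 RPM in cMoP, against 58.2 and 42.6 RPM in MDP (log2 ratio -2.03 ± 0.39, adjusted p = 0.00705). Nusap1 had 5.69 and 13.7 RPM in cMoP, against 65.3 and 39.5 RPM in MDP (-2.38 ± 0.42, adjusted p = 0.00389). Ect2 had 2.19 and 10.6 RPM in cMoP, against 28.1 and 16.8 RPM in MDP (-1.90 ± 0.52, adjusted p = 0.0497). The groups did not overlap for these genes, and the 8-week cMoP libraries lay below the MDP libraries for 37 of the 52 members and for 32.0% of all genes tested. Without MDP replicate 1 there were 0 calls, without cMoP replicate 2 there were 5, and fitting the compared groups alone gave 0.

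From cMoP to marrow Ly6C+ monocytes, the mitosis genes that were called were all higher in the monocytes, 28 at 8 weeks and 4 at 7 weeks. The genes of spindle midzone and cytokinesis had the highest median ratio of the 9 roles in both tables, and no test compared the roles. In 8-week marrow 28 of 52 members were higher in Ly6C+ monocytes and 0 lower, beside 16.3% of all genes higher and 20.5% lower. In 7-week marrow 4 of 52 were higher and 0 lower, beside 15.3% and 22.4% of all genes, so the share of members called there was below the share of all genes. The median log2 ratio was 1.09 over the members and -0.10 over all genes at 8 weeks, and 0.35 over the members and -0.17 over all genes at 7 weeks. The 4 genes called at 7 weeks (Racgap1, Kif23, Cenpa and Tuba1c) were all among the 28. Groups without overlap were common at this step: 33.4% of all genes at 7 weeks and 35.3% at 8 weeks were below every cMoP library. The share of all genes above every cMoP library was not counted. Separation without a call, as given for genes below, is therefore a description of the values only. The count at 7 weeks moved widely with the method: edgeR on the recovered reads called 24 higher, the fit of the compared groups alone called 30 higher and 2 lower (Cks1b and Tubb5), and leaving out any 1 library other than cMoP replicate 4 left 0 to 2, with 0 without Ly6C+ replicate 4. The 24 genes of edgeR shared 19 with the 28, which is 79.2% of the 24 and 67.9% of the 28. At 8 weeks a pseudocount of 0.25 in place of 1 left 14 calls, leaving out cMoP replicate 1 left 16, and leaving out Ly6C+ replicate 1 left 17.

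All 6 genes of the midzone and cytokinesis were called higher at 8 weeks, and 2 of the 6 at 7 weeks, with median log2 ratios of 1.82 and 0.81. Racgap1, the GTPase-activating subunit of the centralspindlin complex, had 258 and 206 RPM in 8-week Ly6C+ monocytes, against 74.0 and 96.8 RPM in cMoP (log2 ratio 1.43 ± 0.26, adjusted p = 0.000634). In the 7-week marrow Racgap1 had 189, 199 and 302 RPM in Ly6C+ monocytes, against 152, 115, 128 and 115 RPM in cMoP (0.82 ± 0.27, adjusted p = 0.0177). Kif23, the kinesin subunit of that complex, had 117, 117 and 122 RPM in 7-week Ly6C+ monocytes, against 65.2, 72.2, 62.7 and 70.0 RPM in cMoP (0.81 ± 0.30, adjusted p = 0.0357). Both genes were above every cMoP library in each table, and the promoters of both were printed above. Kif23 had 77.9 and 89.1 RPM in 8-week Ly6C+ monocytes, against 20.6 and 26.9 RPM in cMoP (1.78 ± 0.35, adjusted p = 0.00107). Prc1 had 93.9 and 68.3 RPM in 8-week Ly6C+ monocytes, against 12.3 and 10.6 RPM in cMoP (2.71 ± 0.39, adjusted p = 0.000101). At 7 weeks Prc1 had 105, 87.0 and 95.0 RPM in Ly6C+ monocytes, against 51.5, 51.3, 48.8 and 50.0 RPM in cMoP, without overlap, yet the adjusted p was 0.0797. Ect2 differed between the tables: its 7-week values of 22.4, 26.8 and 24.6 RPM in Ly6C+ monocytes overlapped the 20.002 to 24.7 RPM of cMoP. Its 8-week values were 22.7 and 20.8 RPM in Ly6C+ monocytes, against 2.19 and 10.6 RPM in cMoP (1.90 ± 0.52, adjusted p = 0.0103).

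Of the spindle motor and assembly genes, 7 of 9 were called higher at 8 weeks and 0 of 9 at 7 weeks (median log2 ratios 1.31 and 0.55). Kif11, the kinesin that pushes the spindle poles apart, had 79.8 and 107 RPM in 8-week Ly6C+ monocytes, against 17.9 and 20.6 RPM in cMoP (2.20 ± 0.38, adjusted p = 0.00044). Hmmr, a spindle assembly factor, had 51.5 and 82.4 RPM in 8-week Ly6C+ monocytes, against 9.63 and 17.5 RPM in cMoP (2.24 ± 0.40, adjusted p = 0.000541). Nusap1 showed the largest ratio of the set at that step, with 126 and 99.1 RPM in Ly6C+ monocytes, against 5.69 and 13.7 RPM in cMoP (3.51 ± 0.42, adjusted p = 1.8e-05). In the 7-week table these 3 genes were also above every cMoP library, without a call, and separation alone was common at that step. Kif11 had 125, 122 and 98.6 RPM in 7-week Ly6C+ monocytes, against 59.6, 67.2, 73.3 and 72.8 RPM in cMoP (adjusted p = 0.305). Kif22, a kinesin that moves chromosome arms, had 75.5 and 97.4 RPM in 8-week Ly6C+ monocytes, against 56.0 and 20.6 RPM in cMoP (1.31 ± 0.45, adjusted p = 0.0336). Its 2 cMoP libraries thus differed between themselves by more than the gap to the lower monocyte library.

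Of the 7 genes of chromosome structure, 3 were called at 8 weeks (Top2a, Mki67 and the condensin subunit Ncapg) and 0 at 7 weeks. Top2a, the topoisomerase that separates entangled chromatids, had 441 and 424 RPM in 8-week Ly6C+ monocytes, against 173 and 196 RPM in cMoP (1.23 ± 0.39, adjusted p = 0.0234). At 7 weeks Top2a had 434, 483 and 381 RPM in Ly6C+ monocytes, against 304, 358, 335 and 362 RPM in cMoP, without overlap and without a call. Mki67, which coats mitotic chromosomes and encodes the proliferation antigen Ki-67, had 185 and 241 RPM in 8-week Ly6C+ monocytes, against 109 and 97.4 RPM in cMoP (1.03 ± 0.35, adjusted p = 0.0326). The pattern of high monocyte libraries was thus present for both genes in both tables, although the 7-week differences were not called. Mki67 at 7 weeks had 224, 270.0 and 163 RPM in Ly6C+ monocytes, against 94.8, 126, 104 and 129.9 RPM in cMoP (adjusted p = 0.139). Smc4, a condensin ATPase, had 178 and 153 RPM in 8-week Ly6C+ monocytes, against 67.8 and 139 RPM in cMoP (adjusted p = 0.118).

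Among kinetochore and checkpoint genes, 4 of 9 were called at 8 weeks and 1 of 9 at 7 weeks. Cenpa, the histone H3 variant of the centromere, had 432, 497 and 542 RPM in 7-week Ly6C+ monocytes, against 299.8, 287, 307 and 288 RPM in cMoP (0.72 ± 0.28, adjusted p = 0.0408). At 8 weeks Cenpa had 480.4 and 424 RPM in Ly6C+ monocytes, against 219 and 204 RPM in cMoP (1.09 ± 0.22, adjusted p = 0.00147). Its replicates were close to each other in every group, and the groups were well apart. Ndc80, which holds microtubule ends at the kinetochore, had 53.4 and 50.0 RPM in 8-week Ly6C+ monocytes, against 17.5 and 19.98 RPM in cMoP (1.42 ± 0.47, adjusted p = 0.028). Cenpe, a kinetochore kinesin, had 76.4, 51.1 and 50.7 RPM in 7-week Ly6C+ monocytes, against 26.2, 31.9, 25.5 and 37.6 RPM in cMoP, which did not overlap but missed the threshold (adjusted p = 0.0748). Its 8-week values of 67.5 and 51.6 RPM in Ly6C+ monocytes, against 29.8 and 26.9 RPM in cMoP, missed it as well (adjusted p = 0.0688).

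Of the 6 mitotic kinases 3 were called at 8 weeks (Plk1, Aurka and Bub1) and 0 at 7 weeks. Plk1, the polo-like kinase of centrosome maturation and mitotic exit, had 145 and 122 RPM in 8-week Ly6C+ monocytes, against 50.3 and 31.8 RPM in cMoP (1.71 ± 0.40, adjusted p = 0.00413). At 7 weeks its values overlapped, with 114, 125 and 137 RPM in Ly6C+ monocytes, against 112, 90.4, 118 and 94.2 RPM in cMoP. Aurkb, the kinase of the passenger complex, had 198 and 169.9 RPM in 8-week Ly6C+ monocytes, against 107 and 85.6 RPM in cMoP (adjusted p = 0.0767). Its targeting subunit Birc5, also known as survivin, was called at 8 weeks, with 279.8 and 236 RPM in Ly6C+ monocytes, against 129 and 101 RPM in cMoP (1.16 ± 0.35, adjusted p = 0.0181). Bub1b, which encodes the checkpoint protein BubR1, was not called in either table: it had 95.7 and 64.1 RPM in 8-week Ly6C+ monocytes, against 46.0 and 53.1 RPM in cMoP. Its 7-week values of 57.9, 95.5 and 101 RPM in Ly6C+ monocytes overlapped the 57.1 to 70.9 RPM of cMoP.

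Neither Cdk1 nor its small subunits Cks1b and Cks2 were called in either table. Cdk1 had 187, 195 and 184 RPM in 7-week Ly6C+ monocytes, against 221, 208, 189 and 182 RPM in cMoP (adjusted p = 0.915), and 158 and 124 RPM in 8-week Ly6C+ monocytes, against 84.0 and 96.2 RPM in cMoP (adjusted p = 0.19). Its groups overlapped at 7 weeks, and at 8 weeks the Ly6C+ libraries were above the cMoP libraries. Cks2 overlapped in both tables, with a log2 ratio of -0.10 ± 0.38 at 7 weeks and 0.29 ± 0.55 at 8 weeks. Cks1b, a small Cdk-binding subunit that also serves in the destruction of p27, had 230.1, 227 and 279 RPM in 7-week Ly6C+ monocytes, against 395, 301, 325 and 304 RPM in cMoP. At 8 weeks it had 136 and 112 RPM in Ly6C+ monocytes, against 217 and 157 RPM in cMoP. All its Ly6C+ libraries thus lay below all cMoP libraries in both tables, opposite to most members, and neither difference was called (adjusted p = 0.202 and 0.0823). Ccna2, cyclin A2, had 221 and 212 RPM in 8-week Ly6C+ monocytes, against 89.7 and 106 RPM in cMoP (1.14 ± 0.35, adjusted p = 0.0201). Ccnb1, cyclin B1, had 65.6 and 53.3 RPM in 8-week Ly6C+ monocytes, against 6.13 and 21.2 RPM in cMoP (2.26 ± 0.54, adjusted p = 0.00424). Ccnb2, cyclin B2, was not called at 8 weeks, at 291 and 276 RPM in Ly6C+ monocytes, against 229.8 and 182 RPM in cMoP. In 7-week marrow these 3 cyclins had higher values in every Ly6C+ library than in every cMoP library, and none was called.

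Ube2c, the ubiquitin-conjugating enzyme of the anaphase-promoting complex, had 393 and 450.5 RPM in 8-week Ly6C+ monocytes, against 75.3 and 56.8 RPM in cMoP (2.67 ± 0.37, adjusted p = 7.07e-05). At 7 weeks it had 424, 428 and 459 RPM in Ly6C+ monocytes, against 257, 227, 237 and 203 RPM in cMoP, without overlap and without a call (adjusted p = 0.138). Cdc20, the activator of that complex, did not share this: it had 66.4, 77.2 and 92.8 RPM in 7-week Ly6C+ monocytes, against 85.8, 60.3, 86.4 and 80.5 RPM in cMoP. Its 8-week values were 62.0 and 51.6 RPM in Ly6C+ monocytes, against 48.1 and 32.5 RPM in cMoP (adjusted p = 0.443).

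The 4 tubulins divided. Tuba1c was called in both tables, with 240.1, 319 and 323 RPM in 7-week Ly6C+ monocytes, against 183, 213, 212 and 201 RPM in cMoP (0.53 ± 0.17, adjusted p = 0.0128). At 8 weeks it had 214 and 202 RPM in Ly6C+ monocytes, against 105 and 89.3 RPM in cMoP (1.10 ± 0.20, adjusted p = 0.00071). Tubb5 instead had 545, 694 and 744 RPM in 7-week Ly6C+ monocytes, against 887, 844, 842 and 867 RPM in cMoP, all lower and not called (adjusted p = 0.102). Tuba1b had 956 and 1089 RPM in 8-week Ly6C+ monocytes, against 1382 and 1116 RPM in cMoP, again lower and not called (adjusted p = 0.312). Tubb4b had 286, 379 and 475 RPM in 7-week Ly6C+ monocytes, against 447, 392, 394 and 409.6 RPM in cMoP, and these values overlapped.

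**Figure D3:**
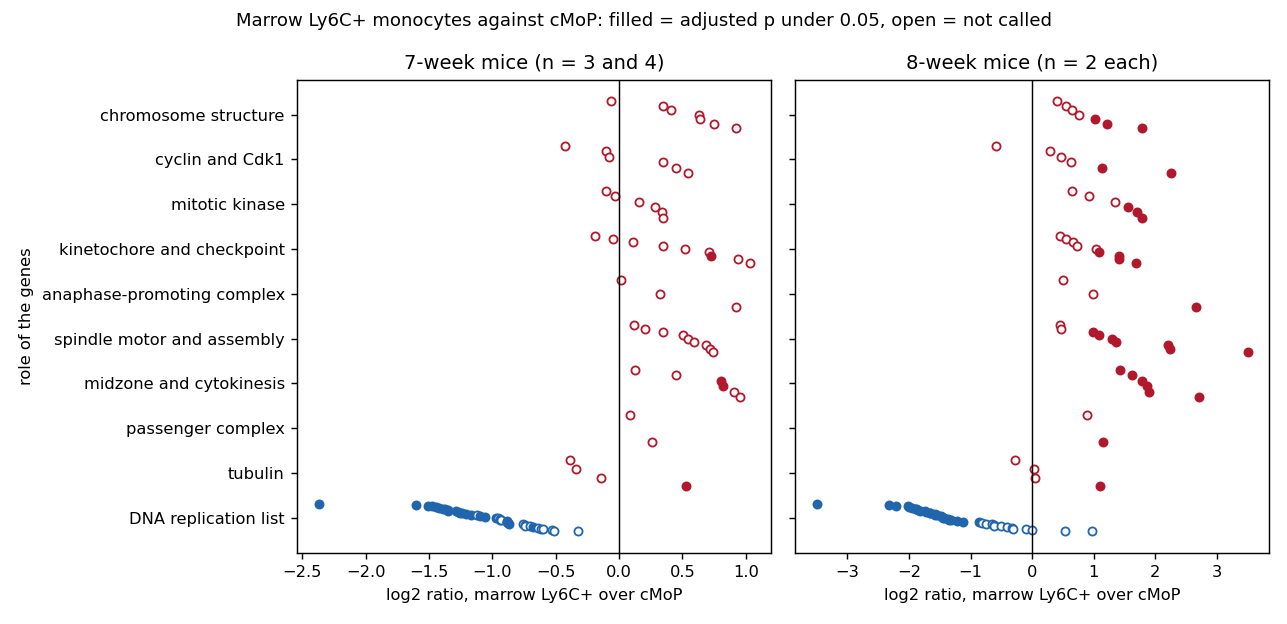
Log2 ratio of marrow Ly6C+ monocytes over cMoP for each mitosis gene, in rows by role, and for the DNA replication genes (last row), in 7-week mice (left) and 8-week mice (right). Filled points are called and open points are not: 4 mitosis genes are filled at 7 weeks and 28 at 8 weeks, all to the right of 0, and the filled replication genes, 25 and 27, all lie to the left.

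DNA replication genes went the other way in the same libraries. Of 40 such genes, 25 were lower and 0 higher in 7-week Ly6C+ monocytes against cMoP, and 27 were lower and 0 higher at 8 weeks. Beside this and the lists below, 22.4% of all genes were lower and 15.3% higher at 7 weeks, and 20.5% and 16.3% at 8 weeks. Their median log2 ratios were -0.96 at 7 weeks and -1.44 at 8 weeks, beside 0.35 and 1.09 for the mitosis genes. Mcm7, a subunit of the replicative helicase, had 138, 193 and 211 RPM in 7-week Ly6C+ monocytes, against 469.9, 432, 488 and 427 RPM in cMoP (-1.35 ± 0.22, adjusted p = 1.6e-05). At 8 weeks Mcm7 had 187 and 137 RPM in Ly6C+ monocytes, against 655 and 520.2 RPM in cMoP (-1.86 ± 0.34, adjusted p = 0.000704). Ung, which removes uracil from new DNA, had 8.49, 12.2 and 16.7 RPM in 7-week Ly6C+ monocytes, against 56.2 to 78.5 RPM in cMoP (-2.37 ± 0.41, adjusted p = 3.65e-05). In both tables the replication genes were thus lower in the monocytes without overlap for 39 of the 40 genes at 7 weeks and 35 of the 40 at 8 weeks, beside 33.4% and 35.3% of all genes tested. Among regulators, the G1 kinase gene Cdk6 had log2 ratios of -3.12 and -3.78 at 7 and 8 weeks, and the D-type cyclin gene Ccnd2 had -3.95 and -6.36, all called. In the list of G1 cyclins and Cdk inhibitors that holds both, 5 of 13 genes were higher and 4 lower at 7 weeks, and 4 were higher and 4 lower at 8 weeks. E2f2, a transcription factor of the E2F family, was instead higher, with log2 ratios of 3.01 ± 0.22 at 7 weeks (adjusted p = 4.79e-12) and 2.72 ± 0.25 at 8 weeks (adjusted p = 1.74e-06). It was the only 1 of 20 cell cycle transcription regulators called higher at 7 weeks, where 6 were lower, and 5 were higher and 4 lower at 8 weeks. Of a further list of mitosis genes outside the 52, 6 of 65 were higher and 1 lower at 7 weeks, and 24 of 63 were higher and 1 lower at 8 weeks. At 7 weeks the share higher was below the 15.3% of all genes. Cdc25b, the phosphatase that activates Cdk1, led both, with log2 ratios of 1.79 ± 0.43 (adjusted p = 0.00157) and 2.21 ± 0.35 (adjusted p = 0.000183).

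Genes listed as markers of other cells differed between the same marrow groups. At 8 weeks the 10 erythroid markers summed to 4643 and 3415 RPM in Ly6C+ monocytes, against 421 and 662 RPM in cMoP: 3 of the 10 were higher (Hba-a1, Hbb-b1 and Alas2) and 5 lower. The erythroid transcription factor gene Klf1 had 1.84 and 0 RPM in the Ly6C+ libraries, and Epor was at 0 in both. At 7 weeks the erythroid sum was 3.86, 127 and 183 RPM in Ly6C+ monocytes, against 16.1 to 52.2 RPM in cMoP, with 0 markers higher and 1 of 5 tested lower. The 12 neutrophil markers summed to 1858 and 1474 RPM in 8-week Ly6C+ monocytes, against 26184 and 19283 RPM in cMoP, with 11 of 12 lower, and to 1667 to 1871 RPM in 7-week Ly6C+ monocytes, against 11673 to 12493 RPM in cMoP, with 5 of 12 lower. The neutrophil sum was thus high in every cMoP library, and it was 3779 to 4390 RPM in 7-week MDP. Such a sum cannot tell admixed cells from sorted cells that transcribe the listed genes themselves. The part of these genes in the mitosis results was not tested.

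Between marrow and blood the whole set was lower in blood. All 52 members were lower in blood Ly6C+ than in marrow Ly6C+ monocytes at 7 weeks with limma, beside 18.7% of all genes lower and 7.32% higher. The median log2 ratio was -4.23 over the members and -0.19 over all genes, and the members ranged from -5.14 (Cdca3, a mitotic entry factor) to -1.45 (Cks2). For 51 of the 52 every blood library was below every marrow library, the exception being Cks2, and this held for 19.8% of all genes tested. Neutrophil markers moved with the tissue: the 12 summed to 141 to 403 RPM in blood Ly6C+ monocytes, against 1667 to 1871 RPM in marrow Ly6C+ monocytes, with 5 of 12 lower and 0 higher. The 5 were Elane, Mpo, Prtn3, Ctsg and Lcn2, whereas Camp was at 0 in all 4 blood libraries and in 2 of the 3 marrow libraries. Here too the sum cannot tell admixed neutrophils from sorted cells that transcribe these genes. The part of these markers in the result was not tested. Blood and marrow cells were prepared differently, and tissue and preparation cannot be told apart.

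The size of the difference varied among members, also within a role. Ccnb1 was -4.74, Plk1 -4.53, Kif11 -4.54, Birc5 -4.87 and Ube2c -5.05 on the log2 scale. Bub1b, at -3.13, and the tubulins Tubb4b (-3.10), Tuba1b (-2.64), Tubb5 (-2.39) and Tuba1c (-2.38) differed by less. Tuba1b had 272, 223, 323 and 205 RPM in blood Ly6C+ monocytes, against 1443, 1378 and 1943 RPM in marrow Ly6C+ monocytes, without overlap. Smc4 had 57.7, 36.1, 19.4 and 12.9 RPM in blood, against 260.2, 263 and 219 RPM in marrow (-3.14 on the log2 scale). Racgap1 had the smallest difference after Cks2, with 47.1, 35.3, 85.4 and 72.6 RPM in blood, against 189, 199 and 302 RPM in marrow (-1.97 ± 0.27, adjusted p = 1.99e-06). Its partner Kif23 differed by more: it had 15.2, 6.15, 12.3 and 10.3 RPM in blood, against 117, 117 and 122 RPM in marrow (-3.38 on the log2 scale). Cks2 had 3.04, 3.07, 5.28 and 14.6 RPM in blood, against 22.4, 18.8 and 10.1 RPM in marrow (-1.45 ± 0.38, adjusted p = 0.00507), and blood replicate 4 lay within the marrow values.

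Blood Ly6C+ replicates differed in the set as a whole. Replicate 1 had the highest mean, 3.59, and 0 members without a read, while replicate 4 had the lowest, 1.84, and 13 members without a read. Mki67 had 22.8 RPM in replicate 1, and 6.91, 7.92 and 1.29 RPM in the others. Kif11 had 11.1 RPM in replicate 1, and 6.91, 5.28 and 0 RPM in the others. Both remained far below the marrow values in every blood library. Neutrophil markers summed to 403, 209, 324 and 141 RPM in replicates 1 to 4, which is the same order from high to low as the means over the set (3.59, 2.69, 2.85 and 1.84), and their part in this was not tested.

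Marrow Ly6C- monocytes were as low as blood cells. There 51 of 52 members were lower than in marrow Ly6C+ monocytes, beside 29.1% of all genes lower and 11% higher, with a median log2 ratio of -4.30 over the members and -0.28 over all genes. The exception was Cks2, with 9.95, 8.49, 7.03 and 17.8 RPM in marrow Ly6C- monocytes, against 22.4, 18.8 and 10.1 RPM in marrow Ly6C+ monocytes (-0.63 ± 0.38, adjusted p = 0.195). Racgap1 had 10.4, 5.88, 7.61 and 6.67 RPM in marrow Ly6C- monocytes (-4.73 ± 0.27 against marrow Ly6C+ monocytes, adjusted p = 4.55e-14). Smc4 had 37.8, 51.0, 65.6 and 30.03 RPM (-2.45 on the log2 scale). Neutrophil markers summed to 30.9 to 427 RPM in marrow Ly6C- monocytes, against 1667 to 1871 RPM in marrow Ly6C+ monocytes, with 6 of 12 lower and 2 higher. Erythroid markers summed to 719 to 1852 RPM in marrow Ly6C- monocytes, against 3.86 to 183 RPM in marrow Ly6C+ monocytes, with 2 of 5 tested higher (Hba-a1 and Hbb-b1). Their part in the result was not tested. The change from Ly6C+ to Ly6C- monocytes was tested as an interaction of tissue and subset: all 52 members had a higher log2 ratio of Ly6C- over Ly6C+ in blood than in marrow, beside 14.3% of all genes called with that sign and 3.53% with the other, and the median was 3.58 on the log2 scale. That count includes Hmmr, which had no read in any blood Ly6C- library. Of the 4 groups in the term only marrow Ly6C+ monocytes were high, with a group mean of 6.80 over the set. The others stood at 2.62 (marrow Ly6C-), 2.74 (blood Ly6C+) and 2.18 (blood Ly6C-). The term thus restates the level of marrow Ly6C+ monocytes and is no separate result.

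Within 7-week blood, differences between subsets were small and divided by gene. Against blood Ly6C+ monocytes, 11 of 52 members were lower in Ly6C- monocytes and 3 higher, beside 10.5% of all genes lower and 9.86% higher, with a median log2 ratio of -0.67 over the members. Against Ly6C+ monocytes, 9 were lower in Ly6Cint monocytes and 1 higher, beside 19.2% and 7.95% of all genes, so the share lower was below that of all genes. Against Ly6Cint monocytes, 1 was lower in Ly6C- monocytes and 3 higher, beside 1.62% and 7.25%. Without Ly6C+ replicate 4 the calls were 23 for Ly6C- against Ly6C+ and 20 for Ly6Cint against Ly6C+. Without Ly6C- replicate 1 they were 7 for Ly6C- against Ly6C+ and 8 for Ly6C- against Ly6Cint, and without Ly6C- replicate 2 they were 9 and 2. With the compared groups alone, 2 members were called for Ly6C- against Ly6C+, 2 for Ly6Cint against Ly6C+ and 0 for Ly6C- against Ly6Cint, and edgeR called 5 for Ly6Cint against Ly6C+ and 2 for Ly6C- against Ly6Cint.

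Racgap1 was highest in the first subset, with 47.1, 35.3, 85.4 and 72.6 RPM in Ly6C+, 16.7, 12.1 and 24.4 RPM in Ly6Cint and 9.27, 17.4 and 18.7 RPM in Ly6C- monocytes. It was lower in Ly6Cint than in Ly6C+ monocytes by a log2 ratio of -1.68 ± 0.27 (adjusted p = 5.65e-05), without overlap, while Ly6C- and Ly6Cint values overlapped. Aurkb had 20.7, 16.9, 22.9 and 8.59 RPM in Ly6C+, 12.5, 7.08 and 9.05 RPM in Ly6Cint and 1.74, 0.643 and 4.67 RPM in Ly6C- monocytes. It was lower in Ly6C- than in Ly6Cint monocytes (-1.81 ± 0.33, adjusted p = 0.00133) and than in Ly6C+ monocytes (-2.55 ± 0.31, adjusted p = 3.48e-07). Ube2c followed, with 25.8, 13.1, 19.4 and 3.01 RPM in Ly6C+, 5.84, 5.06 and 4.18 RPM in Ly6Cint and 1.16, 0 and 6.67 RPM in Ly6C- monocytes (-2.38 ± 0.48 for Ly6C- against Ly6C+, adjusted p = 0.000569). For these genes the last step amounts to a few reads per library.

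Other members, 3 of the 52, were called higher in Ly6C- than in Ly6C+ monocytes, a share below the 9.86% of all genes. Tacc3, which stabilises spindle fibres with clathrin, had 13.7, 7.68, 10.6 and 4.73 RPM in Ly6C+, 19.2, 14.2 and 11.8 RPM in Ly6Cint and 21.4, 14.1 and 16.0 RPM in Ly6C- monocytes (0.91 ± 0.28 for Ly6C- against Ly6C+, adjusted p = 0.0222). Cks2 had 3.04, 3.07, 5.28 and 14.6 RPM in Ly6C+, 9.18, 14.2 and 13.2 RPM in Ly6Cint and 10.4, 16.1 and 14.7 RPM in Ly6C- monocytes (1.20 ± 0.38 for Ly6C- against Ly6C+, adjusted p = 0.0241). Replicate 4 of the Ly6C+ cells, which had the lowest mean over the set, was the highest of them for Cks2. Tuba1c had 57.7, 49.2, 64.3 and 50.7 RPM in Ly6C+, 44.2, 68.8 and 52.9 RPM in Ly6Cint and 76.4, 81.0 and 93.4 RPM in Ly6C- monocytes (0.59 for Ly6C- against Ly6C+, adjusted p = 0.0112). All Ly6C- libraries were above all others for this tubulin. Tubb5 did not follow: it had 117, 111, 166 and 112 RPM in Ly6C+, 81.0, 70.8 and 78.7 RPM in Ly6Cint and 68.3, 125 and 149 RPM in Ly6C- monocytes, with the lowest values in the middle subset. Blood and marrow Ly6C- monocytes themselves differed in 6 members, 4 lower in blood (Aurkb, Birc5, Kif22 and Ube2c) and 2 higher (Tuba1b and Tuba1c), beside 0.598% of all genes lower and 1.94% higher. Fitted alone, those 2 groups gave 0 calls, edgeR gave 2, and without blood replicate 2 there was 1.

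**Figure D4:**
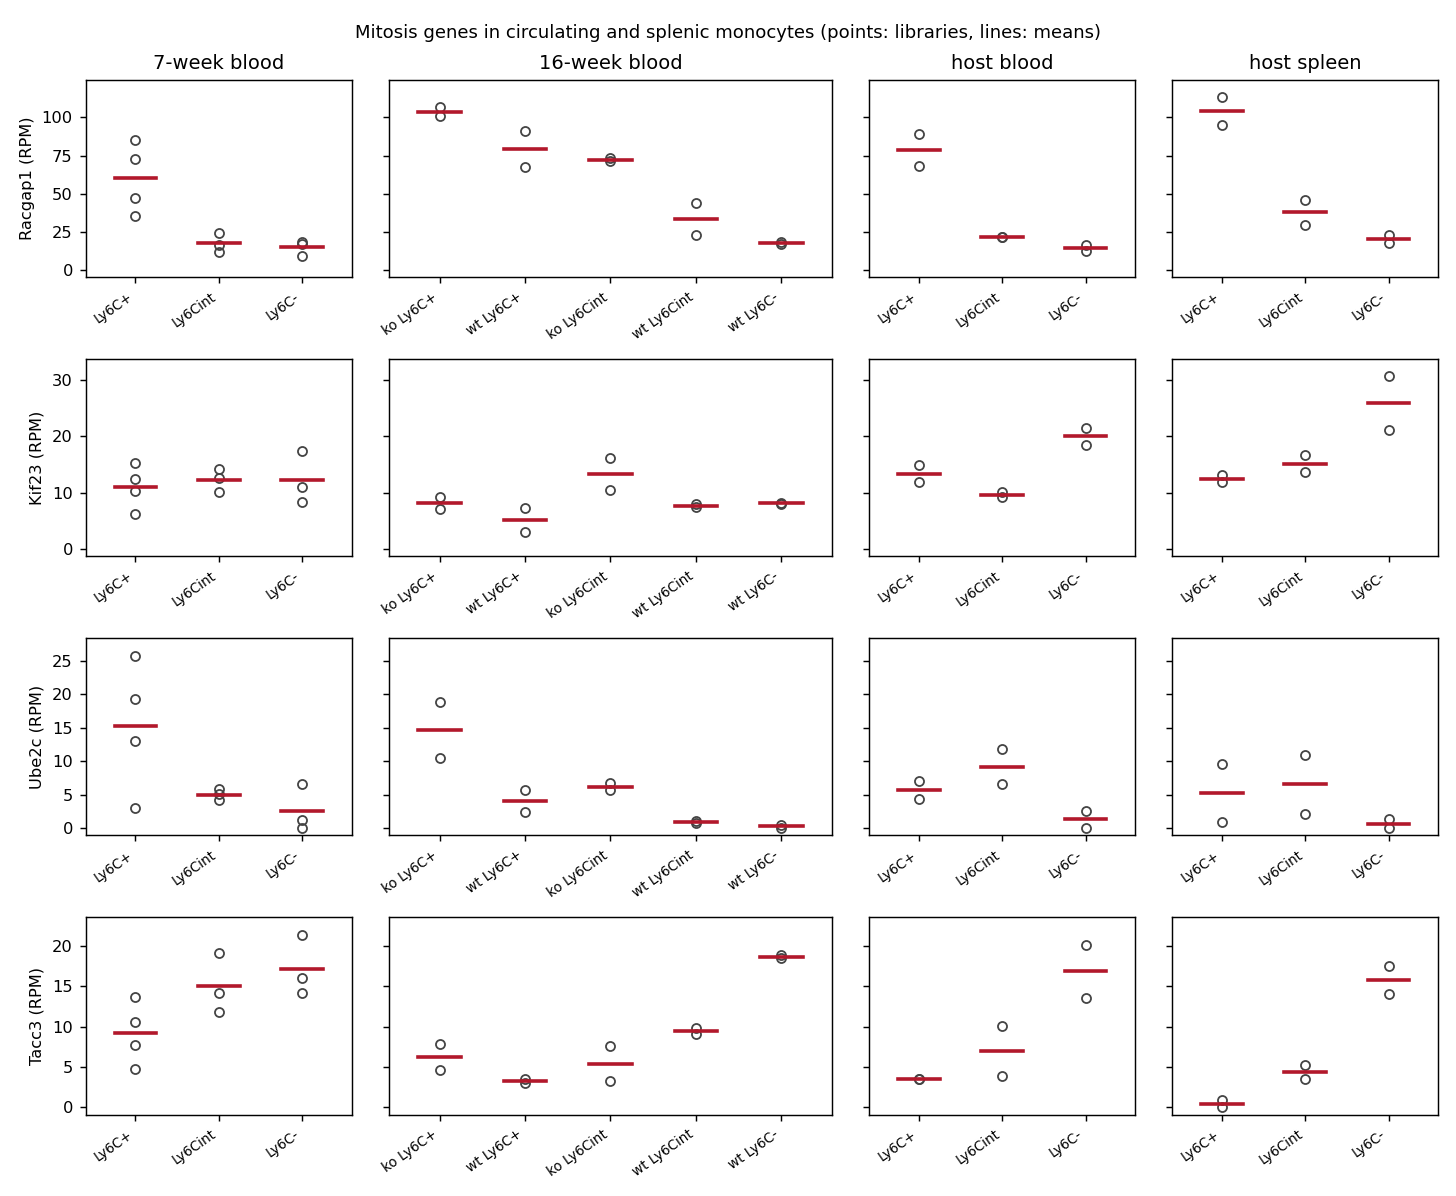
RPM per library (points) of Racgap1, Kif23, Ube2c and Tacc3 in Ly6C+, Ly6Cint and Ly6C- monocytes of 7-week blood, 16-week blood (ko beside wt), host blood and host spleen. Racgap1 is highest in Ly6C+ monocytes in all 4 settings, Tacc3 has its highest mean in Ly6C- monocytes in each, and Kif23 shows no shared order.

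The 16-week blood libraries allowed the subsets to be compared in wt mice and the genotypes within Ly6C+ and Ly6Cint monocytes. Cebpb itself had 115 and 57.2 RPM in ko Ly6C+ monocytes, against 804 and 693 RPM in wt Ly6C+ monocytes (log2 ratio -3.19 ± 0.38, adjusted p = 0.000551), and 186 and 67.1 RPM in ko Ly6Cint monocytes, against 1734 and 1242 RPM in wt Ly6Cint monocytes (-3.70 ± 0.38, adjusted p = 4.82e-05). The labels thus match the level of the gene, although reads remained in every ko library. In wt cells 6 of 52 members were higher and 3 lower in Ly6C- against Ly6C+ monocytes, beside 4.84% of all genes higher and 5.68% lower. The share of members lower was thus near that of all genes. The 3 lower were Racgap1, Ube2c and Aurkb. Racgap1 had 17.3 and 18.5 RPM in wt Ly6C- monocytes, against 91.2 and 67.5 RPM in wt Ly6C+ monocytes (-2.07 ± 0.26, adjusted p = 8.93e-05). Aurkb had 1.33 and 2.05 RPM in wt Ly6C- monocytes, against 13.2 and 10.04 RPM in wt Ly6C+ monocytes (-2.23 ± 0.39, adjusted p = 0.00147). Ube2c had 0 and 0.514 RPM in wt Ly6C- monocytes, against 5.73 and 2.43 RPM in wt Ly6C+ monocytes (-1.97 ± 0.37, adjusted p = 0.00261). All 3 were also called lower in 7-week blood.

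The 6 higher in wt Ly6C- monocytes were Tacc3, Ndc80, Top2a, Tuba1c, Tubb4b and Kif20b. Tacc3 had 18.8 and 18.5 RPM in wt Ly6C- monocytes, against 3.53 and 3.04 RPM in wt Ly6C+ monocytes (2.20 ± 0.32, adjusted p = 0.000316). Tubb4b had 89.8 and 74.5 RPM in wt Ly6C- monocytes, against 42.7 and 44.4 RPM in wt Ly6C+ monocytes (0.89, adjusted p = 0.0139). These 2 genes were well above 1 read in every library. The rest of the non-tubulin calls rest on few reads: Top2a had 4.33 and 3.08 RPM in wt Ly6C- monocytes, against 0.881 and 0 RPM in wt Ly6C+ monocytes, and Ndc80 had 6.67 and 3.60 RPM, against 0.441 and 0 RPM. Kif20b had 2.50 and 5.14 RPM in wt Ly6C- monocytes and no read in either wt Ly6C+ library. In wt Ly6Cint against Ly6C+ monocytes, Racgap1 was lower (-1.27 ± 0.26, adjusted p = 0.01) and Tacc3 higher (1.29 ± 0.32, adjusted p = 0.0332), and these were the only 2 members called, beside 2.20% of all genes lower and 2.10% higher. edgeR called 6 there, the compared groups alone 0, the fit without wt Ly6C+ replicate 1 called 0 and without wt Ly6Cint replicate 1 called 1.

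Few mitosis genes were called between ko and wt monocytes, and most were too low there for a difference to be seen. Between 15 and 17 of the 52 averaged at least 2 RPM in each of these groups, so the counts say little about the other members. In ko against wt Ly6C+ monocytes 1 of 52 members was higher and 0 lower, beside 0.799% of all genes higher and 0.465% lower. In ko against wt Ly6Cint monocytes 2 were higher and 0 lower, beside 3.63% and 2.70% of all genes. Ube2c was the gene in Ly6C+ monocytes, with 10.4 and 18.8 RPM in ko, against 5.73 and 2.43 RPM in wt (1.65 ± 0.37, adjusted p = 0.0439). It was also called in Ly6Cint monocytes, with 5.71 and 6.71 RPM in ko, against 1.02 and 0.756 RPM in wt (1.93 ± 0.37, adjusted p = 0.00537). Ko libraries were above wt libraries in both subsets, but the call in Ly6C+ monocytes was lost under every alternative that normalised, fitted or filtered the table otherwise and without any 1 of the 4 libraries. Racgap1 was the second gene in Ly6Cint monocytes, with 73.5 and 71.2 RPM in ko, against 43.9 and 23.1 RPM in wt (1.16 ± 0.26, adjusted p = 0.0141). In Ly6C+ monocytes it had 107 and 101 RPM in ko, against 91.2 and 67.5 RPM in wt (adjusted p = 0.746). Leaving out ko Ly6Cint replicate 2, or fitting the 2 groups alone, left 0 calls in Ly6Cint monocytes, and edgeR called 4.

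Whether the ko difference itself depended on the subset was tested as an interaction: 0 of 52 members were called by limma or by edgeR, beside 0.00878% of all genes higher and 0% lower, and 3 members had an unadjusted p under 0.05. From Ly6C+ to Ly6Cint monocytes within ko mice 0 of 52 were called by either tool, with 6 at an unadjusted p under 0.05, beside 0.790% of all genes higher and 0.852% lower. Racgap1 there had 73.5 and 71.2 RPM in ko Ly6Cint, against 107 and 101 RPM in ko Ly6C+ monocytes (adjusted p = 0.447). Cenpa had 33.9 and 28.6 RPM in ko Ly6C+ monocytes, against 20.1 and 13.7 RPM in wt Ly6C+ monocytes (adjusted p = 0.0792). It had 26.9 and 27.1 RPM in ko Ly6Cint monocytes, against 14.5 and 16.3 RPM in wt Ly6Cint monocytes (adjusted p = 0.0513), so its ko libraries were above its wt libraries in both subsets and neither difference was called. Most other members were at a few reads, and between 8 and 16 of the 52 had no read in either library of a 16-week group. Neutrophil markers moved with the genotype: their sum was 82.2 and 129 RPM in ko Ly6C+ monocytes, against 41.2 and 40.5 RPM in wt Ly6C+ monocytes, and 19.3 and 27.1 RPM in ko Ly6Cint monocytes, against 8.49 and 7.57 RPM in wt Ly6Cint monocytes. Their part in the result was not tested.

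Marrow Ly6C+ monocytes had low levels of most members 24 h after transfer. In blood grafts at 24 h 42 of 52 members were lower than in the cells before transfer and 0 higher, beside 10.3% of all genes lower and 2.98% higher. Of those 42, 28 were listed at 0 in both graft libraries, and the 14 others had values. In spleen grafts at 24 h 33 were lower and 0 higher, beside 2.91% and 2.89% of all genes, and 5 of the 33 were listed at 0 in both. A pseudocount of 0.25 gave 17 for spleen and the compared groups alone gave 4, and leaving out replicate A or B before transfer or spleen replicate C gave 11, 14 or 17.

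Cdk1 was listed at 0 in both blood grafts and at 5.26 and 0 RPM in spleen grafts at 24 h, against 66.2 and 56.1 RPM before transfer. Ccna2 was listed at 0 in both blood grafts and at 8.33 and 0 RPM in spleen grafts, against 131 and 94.7 RPM before transfer. Tpx2, the activator of Aurora A, was listed at 0 in every blood graft at all 3 times and at 5.26 and 18.8 RPM in spleen grafts at 24 h, against 81.9 and 59.6 RPM before transfer. The 3 genes were thus listed at 0 in blood grafts at 24 h, and each had reads in at least 1 spleen graft. Top2a had 18.8 and 0 RPM in blood grafts, against 326 and 252 RPM before transfer (log2 ratio -6.01 ± 1.27, adjusted p = 0.00259). Mki67 had 11 and 0 RPM in blood grafts, against 184 and 205 RPM before transfer (-5.82, adjusted p = 0.00354). Aurkb had 2.63 and 12.3 RPM in blood grafts, against 115 and 85.9 RPM before transfer (-3.85, adjusted p = 0.00506). In spleen grafts the same genes had 16.2 and 34.6 RPM (Top2a), 4.38 and 45.1 RPM (Mki67) and 8.33 and 21.0 RPM (Aurkb), all below the cells before transfer. None of these 3 was called in spleen grafts, where their 2 libraries were far apart.

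Some members fell by less or were not called. Tubb5 had 279.6 and 153 RPM in blood grafts at 24 h, against 597 and 435 RPM before transfer (-1.30 ± 0.34, adjusted p = 0.0135). Tuba1b had 32.4 and 45.6 RPM in blood grafts, against 149 and 157 RPM before transfer (-1.96 ± 0.45, adjusted p = 0.005). Smc4 was not called: it had 92.5 and 91.1 RPM in blood grafts and 135 and 68.8 RPM in spleen grafts, against 169 and 177 RPM before transfer. At 48 h it had 118 and 121 RPM in blood and 145 and 107 RPM in spleen, so the 12 graft libraries held 68.8 to 145 RPM over the time course. The other members not called in blood grafts were Kif23, Tacc3, Cenpa, Smc2, Knstrn, Cks2, Ube2c, Tubb4b and Tuba1c. Kif23 had 9.64 and 48.2 RPM in blood grafts, against 42.5 and 46.5 RPM before transfer, and Tacc3 had 24.5 and 49.5 RPM, against 38.1 and 48.2 RPM. Racgap1 had 13.6 and 3.94 RPM in blood grafts (-4.29 ± 0.61, adjusted p = 5.43e-05) and 32.0 and 22.8 RPM in spleen grafts (-2.56 ± 0.61, adjusted p = 0.0121), against 184 and 147 RPM before transfer. At 48 h Racgap1 had 16.7 and 30.2 RPM in blood grafts and 21.9 and 22.3 RPM in spleen grafts, and neither tissue gave a call against 24 h.

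Between 24 and 48 h 2 members were called, both in spleen. In blood grafts 0 of 52 members were called at 48 h against 24 h, beside 8.09% of all genes, with 7 members at an unadjusted p under 0.05 and 1 to 4 calls in several alternative fits. In spleen grafts 2 were lower at 48 h (Aurkb and Tpx2), beside 2.41% of all genes called in either direction. Without the 24 h library B there were 4 calls, without the 24 h library C there was 1, and the compared groups alone gave 0. In spleen 15 members had an unadjusted p under 0.05 and 21 were lower at 48 h without overlap, beside 19.5% of all genes tested, with a median log2 ratio of -1.09 over the members and -0.17 over all genes. Both called genes were listed at 0 in the 48 h libraries. In the cells at 24 h they had 8.33 and 21.0 RPM (Aurkb) and 5.26 and 18.8 RPM (Tpx2). The number of members listed at 0 in both libraries was 28, 23 and 29 in blood grafts and 5, 8 and 29 in spleen grafts at 24, 36 and 48 h. Spleen thus had fewer such members than blood at the first 2 times and as many at the third, but at 36 h this rested on 1 library. Spleen replicate B then had 28 members at 0 and replicate C had 10, against 25 (AC) and 32 (B) in blood. The number of all genes above 0 moved with these counts: it was 8278 and 8109, 10227 and 9785, and 8761 and 7734 in blood grafts at the 3 times, 10970 and 9354, 10034 and 10864, and 8396 and 8614 in spleen grafts, and 11719 and 11574 before transfer. Its part in the counts at 0 was not tested. The set mean of log2(RPM + 1) was 1.63 and 1.40, 1.63 and 1.29, and 1.14 and 1.44 in blood grafts at the 3 times, and 2.52 and 2.53, 1.64 and 2.48, and 1.44 and 1.25 in spleen grafts. Spleen against blood grafts at 24 h differed in 3 members, all higher in spleen (Cenpf, Ndc80 and Tpx2) and all listed at 0 in the blood grafts, beside 4.01% of all genes higher and 0.579% lower, so the share of members was near that of all genes. Ndc80 had 8.33 and 16.7 RPM in spleen grafts at 24 h. Fitting those 2 groups alone left 0 calls at 24 h, and leaving out blood replicate B or spleen replicate C left 1. At 48 h 0 members were called between spleen and blood grafts, with 5 at an unadjusted p under 0.05 and 4.37% of all genes called. Leaving out blood replicate AC or B at 48 h gave 5 or 2 calls, and leaving out spleen replicate B or C gave 1 or 3.

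**Figure D5:**
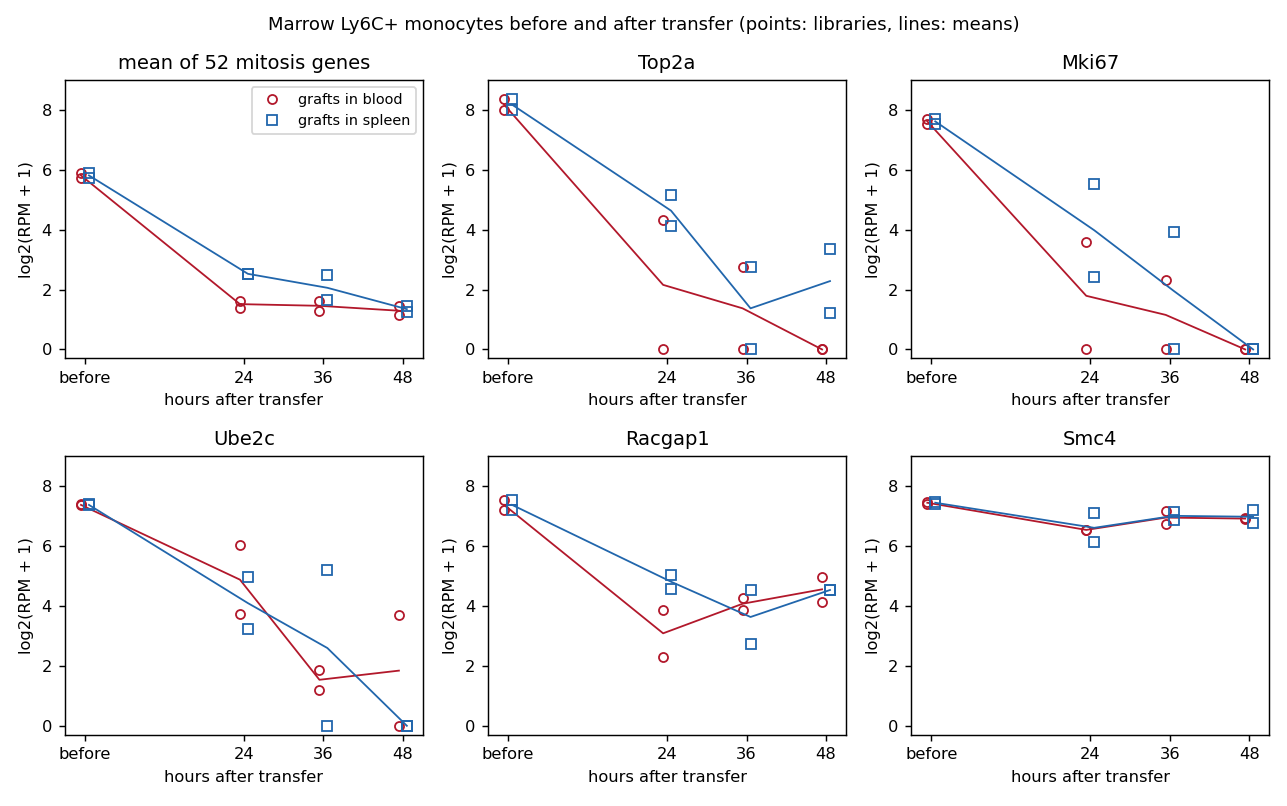
Mean over the 52 mitosis genes, and levels of Top2a, Mki67, Ube2c, Racgap1 and Smc4, all as log2(RPM + 1), in marrow Ly6C+ monocytes before transfer and in grafted cells from blood and spleen at 24, 36 and 48 h (points are libraries, lines join means). The mean over the set is low by 24 h, spleen grafts are above blood grafts at 24 h in set mean, and Smc4, at 169 and 177 RPM before transfer, lies between 68.8 and 145 RPM in the 12 grafts.

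Markers of other cells were present in the grafts. Erythroid markers summed to 2052 and 4386 RPM in blood grafts at 24 h, against 26.7 and 16.7 RPM before transfer, with 2 of 7 tested higher. In spleen grafts at 24 h B cell markers summed to 402 and 159 RPM, against 37.7 and 40.3 RPM before transfer, with 5 of 8 tested higher. T and NK cell markers there summed to 180 and 118 RPM, against 2.19 RPM in each library before transfer, with 5 of 10 higher, and 4 of 10 were higher in spleen than in blood grafts. At 36 h spleen replicate C had 753 RPM of B cell, 304 RPM of T and NK cell and 1215 RPM of platelet markers. Replicate B had 298, 102 and 64.0 RPM. The part of these markers in the difference between spleen and blood grafts was not tested. Grafts of blood passed through ficoll and grafts of spleen through red cell lysis, so tissue and preparation cannot be told apart.

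Host monocytes sorted beside the grafts had not been transferred. In host blood Ly6C+ monocytes 34 of 52 members were lower than in the marrow cells before transfer and 0 higher, beside 1.42% of all genes lower and 1.22% higher. All 52 were below the marrow cells without overlap, beside 30.2% of all genes tested, and 7 were listed at 0 in both libraries. A pseudocount of 0.25 gave 16 calls, the compared groups alone 18, and leaving out host replicate B or marrow replicate A or B gave 11, 13 or 16. Racgap1 was among those not called, with 67.9 and 89.0 RPM in host blood Ly6C+ monocytes, against 184 and 147 RPM before transfer (adjusted p = 0.788). The same gene had 47.1 to 85.4 RPM in blood Ly6C+ monocytes of the 7-week table and 91.2 and 67.5 RPM in 16-week wt mice, each in its own table. Grafted cells in blood, at 13.6 and 3.94 RPM, were below the host cells at 24 h.

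Along the host subsets Racgap1 declined in both tissues. It had 67.9 and 89.0 RPM in Ly6C+, 21.9 and 21.9 RPM in Ly6Cint and 12.3 and 16.2 RPM in Ly6C- monocytes of host blood. In host spleen it had 95.1 and 114 RPM in Ly6C+, 46.0 and 29.8 RPM in Ly6Cint and 23.2 and 17.5 RPM in Ly6C- monocytes. It was the only member called in host blood Ly6C- against Ly6C+ monocytes (-2.38 ± 0.61, adjusted p = 0.0293), beside 1.98% of all genes lower and 1.69% higher. In host spleen it was lower (-2.31 ± 0.61, adjusted p = 0.0428) and Tacc3 was higher (3.61 ± 0.94, adjusted p = 0.0372) in Ly6C- against Ly6C+ monocytes, beside 1.18% of all genes lower and 1.59% higher. Tacc3 had 14 and 17.5 RPM in host spleen Ly6C- monocytes, against 0 and 0.877 RPM in host spleen Ly6C+ monocytes. In host blood Tacc3 had 13.6 and 20.2 RPM in Ly6C- monocytes, against 3.51 and 3.51 RPM in Ly6C+ monocytes, without overlap and without a call. Both calls in host spleen, and that of Racgap1 in host blood, were lost when any 1 of the 4 libraries compared was left out. Without Ly6C+ replicate B the 1 member called in host blood was Ccna2. Between Ly6Cint and Ly6C+ host monocytes limma called 0 members in blood, with 8 at an unadjusted p under 0.05 and 1.16% of all genes called, and 0 in spleen, with 5 at an unadjusted p under 0.05 and 0.562% of all genes called. Between host spleen and host blood it called 0 members in Ly6C+, Ly6Cint and Ly6C- monocytes, with 0, 2 and 1 at an unadjusted p under 0.05 and 0.0909%, 0.165% and 0.190% of all genes called. Single libraries stood out: Ccna2 had 73.6 and 1.31 RPM in host blood Ly6C+ monocytes, and Cdk1 had 10.1 and 50.8 RPM in host blood Ly6Cint monocytes.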

How the data were processed

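Polyadenylated RNA of sorted cells was sequenced, and per the submitters' processing notes reads were handled with bcl2fastq, HISAT 0.1.5, SAMtools and HOMER on mouse build mm9. The authors deposited 3 gene tables. Those of the 7-week and of the 8- and 16-week mice hold a normalised signal that the authors scaled per library, read here as tags per 10000000 and divided to RPM. All their values are whole multiples of 1 read (tolerance 0.1), from which reads were recovered. The transfer table holds a score that the authors deposited as rounded values scaled to an equal sum (2281423 to 2282712), and RPM there is the value over that sum, with 98.5% or more of low values whole in 25 of 26 libraries. Per the labels' protocols, marrow, blood and spleen cells were prepared differently.

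Log2(RPM + 1) was fitted in limma 3.58.1 (R 4.3.3) with 1 mean per group over a whole table, an intensity trend and Benjamini-Hochberg adjustment over genes with at least 2 RPM in at least 3 libraries (7-week) or 2 libraries (other tables). edgeR 4.0.16 (quasi-likelihood, TMM) on recovered reads was an alternative for the first 2 tables, beside a pseudocount of 0.25, no filter, quantile normalization, the compared groups alone, a replicate block, scaling to the listed genes and leaving out 1 library. The fit was tested on simulated data. Members, lists and tests were chosen with earlier results of these data known. All 52 members could be named, 25 of them with values whatever their test, others where their call differed from that of most members, and genes of other lists by smallest p. Cenpa, Kif23, Racgap1, Nusap1, Tacc3, Tpx2 and Ccnb2 belong to the members named for their calls or promoters. No deposited library was left out. Of 300, 120 and 325 pairs of libraries within the 3 tables, 0 held identical values.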

Additional observations from a re-analysis of the deposited data

Results flagged for a closer look

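In 8 of 124 groups of 4 libraries examined over the named members, 1 library stood far from the other 3 by Dixon's criterion, and chance gives about 1 in 20. In marrow Ly6C- monocytes replicate 2 was high for Cdc20 (3.92 RPM, others 0.995 to 1.17), Cdk1 (17.0 RPM, others 4.98 to 6.67) and Kif11 (5.88 RPM, others 2.22 to 2.49), and replicate 4 was high for Bub1b (17.8 RPM, others 7.46 to 9.15). In MDP replicate 1 was high for Birc5 (227 RPM, others 189.8 to 195) and Cks1b (369 RPM, others 327 to 333), and replicate 4 for Ect2 (38.1 RPM, others 26.4 to 28.0). In blood Ly6C+ monocytes replicate 3 was high for Tubb5 (166 RPM, others 111 to 117).

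By the interaction term in limma, the log2 ratio of Ly6C- over Ly6C+ was higher in blood than in marrow for all 52 members in the 7-week table. Among the groups in that term only marrow Ly6C+ monocytes were high. The term restates their level and is no separate result on tissue. Cks2 differed in sign, at 1.20 in blood and -0.63 in marrow, where it was not called. Between spleen and blood grafts at 24 h 3 members were called, Cenpf, Ndc80 and Tpx2, all higher in spleen and all listed at 0 in both blood grafts. The share of members was near the 4.01% of all genes called higher, so the calls are not particular to the mitosis genes. Of the 24 members with values in both groups 0 were called. The compared groups alone gave 0 such calls, and leaving out blood replicate B or spleen replicate C gave 1.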

How the results depend on the processing

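Of 83 gene ratios given with their size, 0 changed sign in any alternative run, and 40 lost their call in at least 1. Those most often lost were Ube2c in ko against wt Ly6C+ monocytes (11 of 11 alternatives), Ect2 in 8-week cMoP against MDP (10 of 11), and Cenpa and Kif23 in 7-week marrow Ly6C+ monocytes against cMoP (9 of 14 each). The counts for blood against marrow Ly6C+ monocytes, for marrow Ly6C- against Ly6C+ monocytes and for the interaction of tissue and subset stayed within 1.5 times of their values in every alternative, as did blood grafts at 24 h against the cells before transfer. The cause of the other changes was not tested.

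With a pseudocount of 0.25 the members called were 2 for 7-week marrow Ly6C+ monocytes against cMoP, 14 for the same at 8 weeks, 1 for 8-week cMoP against MDP, 0 for ko against wt Ly6C+ monocytes, 17 for spleen grafts at 24 h, 1 for blood grafts at 48 h against 24 h and 16 for host blood Ly6C+ monocytes against marrow cells. With no filter they were 2 for 7-week marrow Ly6C+ monocytes against cMoP, 3 for blood against marrow Ly6C- monocytes, 0 for ko against wt Ly6C+ monocytes, 1 for wt Ly6Cint against Ly6C+ monocytes and 1 for blood grafts at 48 h. Quantile normalization gave 1 for 7-week cMoP against MDP, 0 for ko against wt Ly6C+ monocytes, 1 for blood grafts at 48 h and 1 for host spleen Ly6C- against Ly6C+ monocytes. Scaling to the listed genes gave 2 for blood Ly6C- against Ly6Cint monocytes and 0 for ko against wt Ly6C+ monocytes. edgeR gave 2 for 7-week cMoP against MDP, 24 for 7-week marrow Ly6C+ monocytes against cMoP, 5 for blood Ly6Cint against Ly6C+, 2 for blood Ly6C- against Ly6Cint, 2 for blood against marrow Ly6C- monocytes, 0 and 4 for ko against wt in Ly6C+ and Ly6Cint monocytes and 6 for wt Ly6Cint against Ly6C+ monocytes. Fitted alone, the compared groups gave 12 for 7-week cMoP against MDP, 32 for 7-week marrow Ly6C+ monocytes against cMoP, 2 for blood Ly6Cint against Ly6C+, 0 for blood Ly6C- against Ly6Cint, 2 for blood Ly6C- against Ly6C+, 0 for blood against marrow Ly6C- monocytes, 0 for 8-week cMoP against MDP, 0 and 0 for ko against wt in Ly6C+ and Ly6Cint monocytes, 0 for wt Ly6Cint and 5 for wt Ly6C- against Ly6C+ monocytes. In the transfer table that fit gave 4 for spleen grafts at 24 h, 0 for spleen grafts at 48 h against 24 h, 0 for spleen against blood grafts at 24 h, 18 for host blood Ly6C+ monocytes against marrow cells and 2 for host spleen against blood Ly6C- monocytes.

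Leaving out 1 library at a time gave 0 to 3 calls for 7-week marrow Ly6C+ monocytes against cMoP and 16 to 24 at 8 weeks, 0 to 5 for 8-week cMoP against MDP, 8 to 20 for blood Ly6Cint against Ly6C+, 2 to 8 for blood Ly6C- against Ly6Cint, 7 to 23 for blood Ly6C- against Ly6C+ and 1 to 9 for blood against marrow Ly6C- monocytes. It gave 0 to 0 and 0 to 2 for ko against wt in Ly6C+ and Ly6Cint monocytes, and 0 to 2 and 5 to 8 for wt Ly6Cint and wt Ly6C- against Ly6C+ monocytes. In the transfer table it gave 11 to 25 for spleen grafts at 24 h, 2 to 4 for blood and 1 to 4 for spleen grafts at 48 h against 24 h, 1 to 3 and 1 to 5 for spleen against blood grafts at 24 and 48 h, 11 to 25 for host blood Ly6C+ monocytes against marrow cells, 0 to 1 for host blood Ly6Cint and Ly6C- against Ly6C+ monocytes and 0 to 0 for host spleen Ly6C- against Ly6C+ monocytes. Where this left 1 library in a group, that library was assumed to vary like the other groups.

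Libraries of different groups share only a replicate number: deviations from the group means of same-numbered libraries correlated at -0.311 to 0.385, and in no comparison were all pairs above 0.1. With the replicate number as a block the counts were 0 for ko against wt Ly6C+ monocytes, 1 for blood grafts and 4 for spleen grafts at 48 h against 24 h, and stayed within 1.5 times elsewhere. In no comparison with 3 or more such pairs did every library correlate best with its own number. Depth limits the low members: at 0.146 to 1.99 RPM for 1 read, values of a few RPM in blood and in grafts rest on a handful of reads, and intervals would cover counting error only. The 10000000 scale of the first 2 tables sets the RPM values but not the ratios of RPM between libraries. Through the 1 added to RPM and the filter at 2 RPM, it also bears on the log2 ratios and calls of genes with low values.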
